A study of Mus musculus with 2 samples.

Results

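In G1E cells, 699 of 25799 regions of open chromatin lay on exons away from any start site. Open chromatin was read by ATAC-seq, in which the Tn5 transposase cuts and tags DNA that is not covered by nucleosomes, so that places cut often appear as peaks. The peaks of the 2 replicates that passed the authors' threshold on the irreproducible discovery rate were joined where they overlapped or touched. A joined region belonged to the set when its strongest summit, the point of most signal in its strongest peak, fell inside an exon of the GENCODE M21 annotation and the whole region lay over 1000 bp from every annotated transcript start of any biotype. The 699 regions were 2.71% of all joined regions and 5.01% of the 13952 that lay this far from start sites, which are called distal here. The other distal regions had their summit in an intron (7616) or between genes (5637).

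G1E is a mouse line of erythroid progenitors that lacks the transcription factor Gata1. Both libraries were made from 50000 cells, carry the same labels (male, strain C57BL/6J, postnatal, age 0 day) and form 1 group with no control cells and no treatment. It is an established line, so results describe that line, and the labels do not say whether its 2 biological replicates were grown separately, so the spread between them may be technical. The erythroid label fitted the lists: all 8 erythroid markers tried, among them Klf1, Tal1 and Epor, had a region within 1000 bp of a start site in both replicates, against 0 of 19 markers of myeloid, lymphoid, fibroblast, hepatocyte and neuronal cells. In the longer gene lists such a region lay at 36 of 44 erythroid factors and cofactors and 20 of 29 red cell membrane genes. The share over all protein-coding genes was 39.1% (8571 of 21938). Such a region was also found at 27 of 33 cytokine signalling, 27 of 37 chromatin modifier and 9 of 29 stem and progenitor genes. It was found at 6 of 24 megakaryocyte and 3 of 20 mast cell genes. Granulocyte and macrophage genes had it at 4 of 25, lymphoid at 4 of 24 and fibroblast at 1 of 12.

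Exons are mostly thought of as the part of a gene that reaches the messenger RNA, but their DNA lies in chromatin like any other and can hold binding sites for transcription factors. In a coding exon such a site shares its bases with codons, whereas untranslated parts and the exons of noncoding transcripts carry no such reading frame. In red cell precursors many enhancers hold the GATA motif, which GATA family proteins recognise, often a short distance from part of an E-box, where TAL1 binds with its partners, and GATA2 reads the same letters as the absent Gata1.

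The sequences below are shown because they place these motifs within exons. Each is 30 bases from the mm10 (GRCm38) reference, written 5′ to 3′ on the strand named, with the matched motif in capitals. The first group holds matches in coding sequence: for Angpt1, chr15:42523532-42523561 on the plus strand in exon 2 and chr15:42438304-42438333 on the minus strand in exon 8, for Zgrf1 chr3:127563154-127563183 on the minus strand, and for Fras1 chr5:96708715-96708744 on the plus strand. All but the second are matches to the TAL1-GATA composite, a GATA match that follows the letters CTG after a gap of 7 or 8 bases, and the second is a GATA match alone, centred on the summit.
Angpt1 exon 2: gtctgctCTGCAGTCTGAGATAAgagactg
Angpt1 exon 8: cacgaaggatgcTGATAAcgacaactgtat
Zgrf1 exon 6: tcagtgaCTGCGGTTAGAAGATAAggactg
Fras1 exon 43: caagatCTGGACACCCCAGATAAcgagctg

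The next group holds composites in 3′ untranslated and noncoding exons and 1 GATA match in a noncoding exon: Samd7 at chr3:30765815-30765844 and Adipor1 at chr1:134426476-134426505, both on the minus strand, and Kdr at chr5:75962414-75962443 on the plus strand.
Samd7 3′ untranslated: gacgctgCTGTGGCTAGGAGATAAggtgct
Adipor1 noncoding exon: gcaccgtCTGGCCAACAAGATAAgccttgc
Kdr noncoding exon: ggacattcccacAGATAAggaggagcagtg

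The last group shows the CTCF motif, the mark of a factor that holds chromatin loops and insulates domains, at the 3 strongest exonic regions with a match: Neil3 at chr8:53607227-53607256 and the noncoding gene D030034A15Rik at chr10:39171938-39171967, both on the plus strand, and Slc43a2 at chr11:75573545-75573574 on the minus strand.
Neil3 noncoding exon: gcactctgaCCACTAGAGGGCtacacacag
D030034A15Rik exon: cccttctgaCCAGTAGAGGGCgaccaatcg
Slc43a2 3′ untranslated: gtgagtctgCCAGCAGGGGGCactgtgatc

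Most exonic regions lay outside coding sequence, as did most exonic bases over 1 kb from start sites. Of 84.3 Mb of such bases, 25.2 Mb were coding, 30.8 Mb 3′ untranslated and 27.6 Mb noncoding. Coding sequence of any transcript was given precedence, then untranslated parts, then noncoding exons. On that rule 274 regions (39.2%) lay in a 3′ untranslated part, 241 (34.5%) in an exon of a noncoding transcript, 171 (24.5%) in coding sequence and 13 (1.86%) in a 5′ untranslated part. The replicate 1 list alone gave 523 exonic regions and the replicate 2 list 590, or 556.5 ± 47.4 (SD, n = 2). Replicate 1 had 141 coding, 196 3′ untranslated, 175 noncoding and 11 5′ untranslated regions. Replicate 2 had 147, 234, 198 and 11 in the same order. The coding share was 25.9% ± 1.45 (SD, n = 2), the 3′ untranslated share 38.6% ± 1.54 and the noncoding share 33.5% ± 0.0697, so the order of the classes was the same in both lists.

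**Figure D1:**
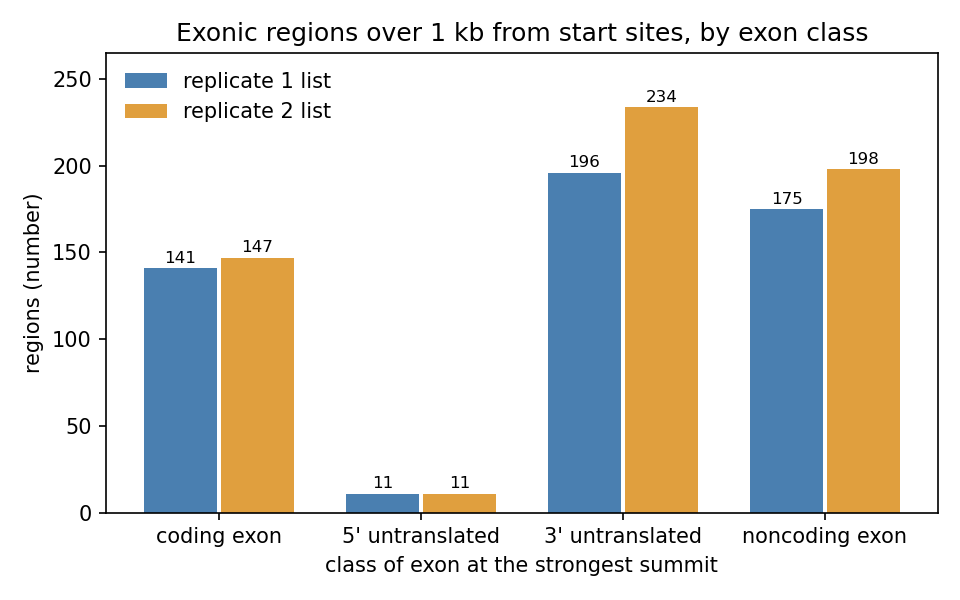
Number of exonic regions over 1 kb from start sites (vertical axis) in each class of exon (horizontal axis), with 1 bar per replicate list and the number above it. The 3′ untranslated class is the highest in both lists, with 196 and 234 regions, and the 5′ untranslated class is the lowest, with 11 in each.

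Set against the amount of sequence, exons held more regions than their length alone would give. Exons over 1 kb from start sites covered 84.3 Mb, which was 3.39% of such bases. They held 5.01% of the joined distal regions, a ratio of 1.48. Within the replicate lists the ratio was 1.43 in replicate 1 and 1.50 in replicate 2. The ratio was 1.34 in both replicates for introns, and 0.725 and 0.720 for sequence between genes. Among exons the coding class had the lowest ratio, 1.29 and 1.25, followed by noncoding exons with 1.46 and 1.54 and 3′ untranslated parts with 1.47 and 1.62. Coding exons thus stood below introns in both lists, and the 2 other large classes stood above them in both, with no test of either difference. The 5′ untranslated parts had the highest ratio, 3.77 and 3.50, from 11 regions in each list on 0.672 Mb. The bases were counted at over 1 kb from a start whereas whole regions had to clear that distance, so the ratios are approximate. All bases of known sequence were counted, repeats included, and how well reads align to each kind of sequence was not taken into account. A summit was placed in its class only by the base beneath it.

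**Figure D2:**
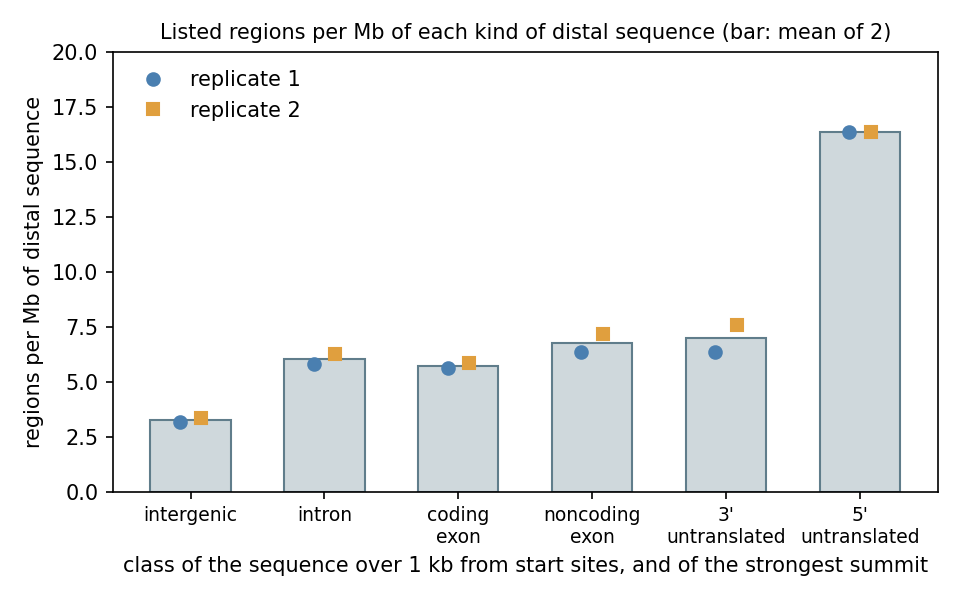
Regions per Mb of distal sequence (vertical axis) for each kind of sequence (horizontal axis), where the bar is the mean of the 2 replicates and the points are the replicates. Coding exons (5.60 and 5.83 per Mb) lie just below introns (5.82 and 6.26) in both replicates, and 5′ untranslated parts, with 11 regions in each list, stand highest at 16.4.

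The exonic regions were listed in both replicates less often than joined regions as a whole. Of the 699, 392 were in both lists, which is 56.1% (95% exact binomial interval 52.3 to 59.8), where the share over all joined regions was 67.5%. A further 119 were in the replicate 1 list alone and 188 in the replicate 2 list alone, and 162 of these 307 had a region in the other replicate's more lenient list. The share in both was 60.8% for coding regions (104 of 171), 55.5% for 3′ untranslated regions (152 of 274) and 52.7% for noncoding exons (127 of 241). It was 59.6% for intronic, 58.5% for intergenic and 78.8% for promoter regions, the last being regions within 1 kb of a start of a protein-coding gene. The exonic share was therefore within a few points of that of the other distal regions, and the interval covers counting error only. Peak lists carry no read totals, so the depth is unknown and absence from a list does not show closed chromatin.

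The signal of exonic regions was near that of other distal regions. Signal is the authors' deposited enrichment value of the strongest peak, which is not scaled between libraries, so it is compared only within a list. The median was 7.31 in replicate 1 and 8.02 in replicate 2 for exonic regions, 7.33 and 8.04 for intronic regions, and 9.32 and 10.4 for promoter regions. As a rank within its list the median exonic region stood at 40.6% and 40.7%, and the median intronic region at 40.8% and 41.0%, so they were close in both replicates. In the same order of replicates the median was 7.41 and 8.35 for coding, 7.11 and 7.53 for 3′ untranslated and 7.41 and 8.13 for noncoding regions. Exonic regions were a median of 388 bp wide, intronic regions 403 bp and promoter regions 499 bp. By the mean of the ranks within the lists, 20 exonic regions (2.86%) stood at or above the 90% point, close to the 2.89% of intronic regions and below the 13.5% of promoters. Across the 392 regions in both lists the signals of the 2 replicates had a Spearman correlation of 0.781, against 0.768 for intronic regions, as a description over regions of the same 2 libraries.

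**Figure D3:**
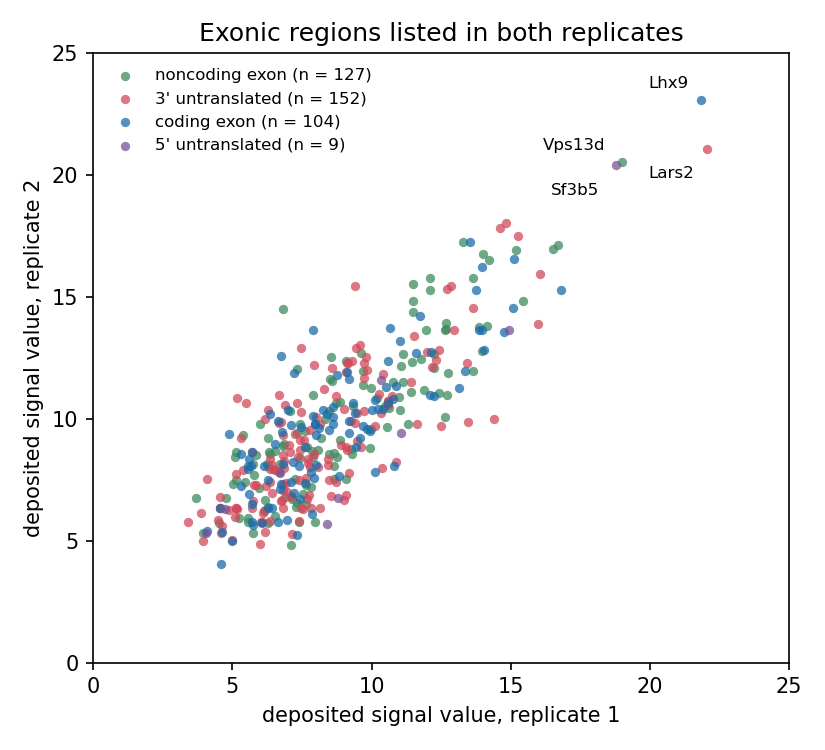
Deposited signal value in replicate 1 (horizontal axis) and replicate 2 (vertical axis) of the 392 exonic regions listed in both, with 1 point per region coloured by exon class. Regions of all classes lie along the same band, and Lhx9, Lars2, Vps13d and Sf3b5 stand at the upper end with values of 18.78 or more in both replicates.

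The strongest coding region lay in Lhx9, a LIM-homeobox gene known from gonad and brain development, at chr1:138831143-138831700. Its signal was 21.8 in replicate 1 and 23.1 in replicate 2, which stood at the 99.9% point of the replicate 1 list and the 99.8% point of the replicate 2 list. The summit was in exon 7 of 7, and the edge of the region lay 1959 bp from the nearest start of any transcript. No start of Lhx9 itself had a promoter region in either replicate. The next were in exon 6 of 26 of Zgrf1, a helicase gene of DNA repair (15.1 and 16.5), and in exon 14 of 14 of Atf2, a transcription factor of the leucine zipper family (16.8 and 15.3). In Fras1, which encodes an extracellular matrix protein, the summit fell in exon 43 of 74, only 154 bp long, with signals of 13.5 and 17.2. Synj1, a phosphoinositide phosphatase of endocytosis, had 14.0 and 16.2 at exon 16 of 32. Acsm3, a mitochondrial acyl-CoA synthetase, had 15.1 and 14.5 at exon 16 of 17. All 6 ranked above 86% of the list of each replicate, and 5 of them held at least 1 GATA match.

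Coding regions mostly spanned more than their exon. The exon under the summit was a median of 217 bp long and shorter than the region itself in 105 of 171 (61.4%). A median of 62.7% of the region's bases were exonic, and in 75 regions the summit lay within 50 bp of an edge of the exon. In the Angpt1 region at exon 8 only 16.9% of the bases were exonic, and at exon 2 only 14.9%. The Zgrf1 region lay wholly inside its exon of 1744 bp. For a coding region the data therefore give a summit in an exon and, in most cases, open sequence that reaches into the introns beside it.

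The 3′ untranslated regions differed in this respect, since 243 of 274 lay wholly within exons. Their exons were a median of 2955.5 bp long. The strongest was in the last exon of Lars2, the mitochondrial leucyl-tRNA synthetase, with 22.0 and 21.1, but 63.5% of the 31-base words around its summit also occur elsewhere in the chromosomes. Reads of such sequence can align in several places, and how they were handled is not given in the sources used here. Orai2, a subunit of store-operated calcium channels, had 16.0 and 16.0 with 81.8% of such words. Of the 699 regions, 18 (2.58%) had over 50% of their words elsewhere, 9 of them coding, against 1.92% of all joined regions. The coding region of Idi2, an isopentenyl diphosphate isomerase gene, had 100% and signals of 12.1 and 11.0. None of the exonic regions shared a word with the mitochondrial genome.

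Among 3′ untranslated regions of unique sequence, Iffo2, an intermediate filament family gene, had signals of 14.8 and 18.01. Samd7, known as a Polycomb-associated gene of photoreceptors, had 14.6 and 17.8, and its promoter was in neither list. In Helz, an RNA helicase gene, the signals were 15.2 and 17.5, with 10.6% of words found elsewhere. Shprh, a ubiquitin ligase gene of DNA damage tolerance, had 16.0 and 13.9 and held 5 GATA matches around its summit, the highest number in the set, which 1 noncoding region (4933440J02Rik) shared. The 4 regions ranked above 84% of both lists.

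The 5′ untranslated class was small and mixed. Its strongest region was in the single exon of Sf3b5, a small subunit of the splicing factor SF3b, with 18.8 and 20.4. The annotated exon was 3841 bp long, the nearest start lay 2693 bp from the region, and the summit was 252 bp before the start codon. Rap2b, a small GTPase gene, held 2 regions in its single exon, at 10.3 and 11.6 and at 4.06 and 5.31, with summits 1291 and 559 bp before the start codon. In Nup160, a nuclear pore gene, the signals were 14.9 and 13.6 and the summit was in exon 2, 98 bp before the start codon, with a CpG observed to expected ratio of 1.17. Hist1h1d, a linker histone gene with 1 annotated exon of 7425 bp, had a region with its summit 40 bp before the start codon (4.72 and 6.28) and another in its 3′ untranslated part (4.63 and 5.59). Zfp160, a zinc finger gene, had 11.1 and 9.43 at an exon of 61 bp, and Kbtbd2, a substrate adaptor of a ubiquitin ligase, had 8.79 and 6.77. For Sf3b5, Rap2b and Hist1h1d membership thus rests on long annotated exons whose start is far from the coding sequence, and whether transcription starts nearer to it was not measured here.

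Noncoding exons were of several kinds. The kind was set by the transcript chosen at the summit (principal isoform first, then basic, then longest), and other noncoding transcripts may share the exon. Of 241 regions, 106 (44.0%) were assigned to a retained-intron transcript of a protein-coding gene and 85 to a long noncoding RNA gene. A further 23 were in a gene that GENCODE marks as still to be experimentally checked, 21 in another noncoding transcript of a protein-coding gene and 6 in a pseudogene. Of the 127 in protein-coding genes, 120 lay between the ends of a coding transcript of the same gene, where their summit is intronic. The strongest, in a retained-intron transcript of Vps13d, a lipid transfer protein gene, had 19.0 and 20.5. Slc38a9, the lysosomal arginine sensor, had 16.5 and 17.0 and 3 GATA matches. In Adipor1, an adiponectin receptor gene, the signals were 15.2 and 16.9 with 4 GATA matches, and Rasa2, a Ras GTPase-activating protein gene, had 14.2 and 16.5. Gm49023, an unprocessed pseudogene, had 16.7 and 17.1, and Gm10286, a gene to be checked, had 14.0 and 16.7. Each of the 6 was listed in both replicates and ranked above 89% of each list.

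Along their genes, exonic regions lay near the 3′ end. Of 699, 464 (66.4%) were in a last exon, 152 in an internal exon, 77 in a single-exon transcript and 6 in a first exon of several. The distance rule alone removes most first exons. Positions of distal exons without a region are not given here, so the shares below do not separate the regions from the layout of exons in genes. The summit stood a median of 86.0% of the way along the gene, and 402 (57.5%) were in the last 20% of it. For the 6920 intronic regions of protein-coding genes the median was 44.0%, and 15.7% were in the last 20%. Coding regions were mainly in internal exons, 116 of 171 (67.8%), with 53 in last exons and a median position of 78.1%. The 3′ untranslated regions were by their nature late, 258 of 274 in last exons, a median of 1.44 kb before the gene's end. Noncoding regions were the most spread, with a median of 66.0% and 38.6% in the last 20%.

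**Figure D4:**
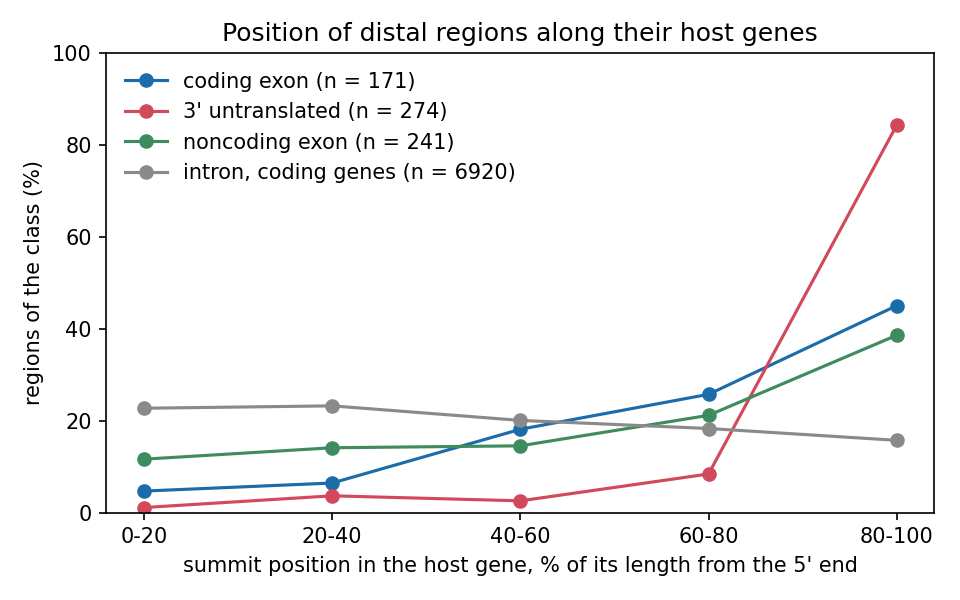
Share of regions (vertical axis, percent of the class) by position of the summit along the host gene (horizontal axis, in steps of 20% from the 5′ end), with 1 line per class. The share of 3′ untranslated regions in the last step is 84.3% and that of coding regions 45.0%, where intronic regions of coding genes have 15.7%. Exons without a region are not drawn, so the layout of exons themselves is not shown.

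Exonic regions were nearer to start sites than other distal regions. The median distance was 4.39 kb, against 8.15 kb for intronic regions. It was 5.71 kb for coding, 5.48 kb for 3′ untranslated and 2.76 kb for noncoding regions. Between 1 and 2 kb lay 157 of the 699 (22.5%). The nearest on the inner side of the limit were in Pisd-ps1, at 1021 bp with a signal of 3.19 in replicate 1 alone, and in Cdc40, a splicing factor gene, at 1022 bp with 14.0 and 12.8. Just outside the set were exonic regions in Tmem88b, at 995 bp with 7.43 in replicate 2 alone, and in Arhgap30, at 987 bp with 16.0 and 12.3.

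By base composition exonic regions stood between introns and promoters. Over 200 bp around the summit, GC content had a median of 51.5% in exonic, 48.5% in intronic and 62.0% in promoter regions. Coding regions had 53.0%, while 153904 coding exons over 1 kb from start sites and without a listed region had 49.0% in windows at their centre. The 3′ untranslated regions had 51.0%, against 44.5% in 33575 such exon parts without a region. The CpG observed to expected ratio was 0.284 in exonic regions, 0.207 in intronic regions and 0.752 at promoters. Coding regions had the highest of the 3 large classes, 0.375, and unlisted coding exons had 0.313.

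Motifs were matched letter by letter on either strand in the same 200 bp windows. A match describes the letters in the window and does not show that a factor was bound. The GATA motif (the letters GATA with A or T before them and A or G after them) was in 355 of 699 exonic regions, with 55.3% in replicate 1 and 52.9% in replicate 2, or 54.1% ± 1.68 (SD, n = 2). Over the joined regions it was in 50.8% of exonic, 64.4% of intronic, 59.0% of intergenic and 17.4% of promoter regions, and in 42.2% of all regions. By class it was in 53.2% of coding, 46.4% of 3′ untranslated and 55.6% of noncoding regions. Unlisted coding exons held it in 25.1% of windows and unlisted 3′ untranslated parts in 29.9%. The share in coding regions was thus over 2 times that of coding exons without a region, and below that of introns.

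The TAL1-GATA composite, every match of which is also a GATA match, set regions and unlisted exons further apart. It was in 105 exonic regions (15.0%), with 18.1% of coding, 12.8% of 3′ untranslated and 15.4% of noncoding regions, where intronic regions had 15.5%, promoters 2.80% and all regions 9.40%. In unlisted coding exons it was in 1.34% of windows and in unlisted 3′ untranslated parts in 1.24%. Over the 2 replicate lists the share in coding regions was 19.1% ± 0.911 (SD, n = 2) and in intronic regions 16.9% ± 0.109. Coding regions with a composite included the second Angpt1 region, Zgrf1 and Fras1, whose sequences are shown above. The next strongest, chosen after their values were seen, were in Ptprk, a receptor tyrosine phosphatase gene (14.0 and 13.6), P4ha1, a collagen prolyl hydroxylase gene (13.8 and 13.6), and Plekhg3 (11.7 and 14.2).

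Of the 19 motifs searched, 14 were more frequent in coding regions than in coding exons without a region and 5 were less frequent. The CTCF motif was in 38 exonic regions (5.44%), between its shares in intronic (4.40%) and intergenic (6.28%) regions, and in 3.52% of all regions. It was in 4.09% of coding regions against 0.142% of unlisted coding exons. The KLF/SP motif (CCACACCC, CCACGCCC, CCCCACCC or CCCCGCCC) was in 17.3% of exonic regions, 14.0% of intronic, 38.7% of promoter and 24.6% of all regions, and in 17.0% of coding regions against 4.48% of unlisted coding exons. The AP-1 motif (TGACTCA or TGAGTCA) was in 10.4% of exonic, 11.6% of intronic and 7.97% of all regions, and in 8.19% of coding regions against 2.75% of unlisted coding exons. Its longer form, the NF-E2 motif (GCTGACTCA or GCTGAGTCA), was in 5.01% of exonic, 4.52% of intronic and 3.09% of all regions, and in 2.34% of coding regions against 0.403% of unlisted coding exons. All NF-E2 matches count among the AP-1 matches. The PU.1 motif (GAGGAAGT) was in 6.72% of exonic, 6.47% of intronic, 5.96% of intergenic and 4.84% of all regions. It was in 6.43% of coding regions against 1.38% of unlisted coding exons. The CTCF motif and the composite are longer than the others and were searched by the strings of their consensus.

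The 5 less frequent motifs were in 0 (CRE) to 13 (C/EBP) of the 171 coding regions. Some of the more frequent motifs had counts as small, such as CTCF with 7 and NF-E2 with 4. The STAT motif (TTCNNNGAA) was in 4.09% of coding regions, 6.57% of unlisted coding exons and 6.04% of all regions. The C/EBP motif (TTGCNNAA) was in 7.60%, 8.21% and 6.85% in the same order, and the GFI1 motif (AAATCAC) in 1.75%, 2.45% and 1.52%. YY1 (AAGATGGC) was in 1.17%, 1.41% and 2.28%, and CRE (TGACGTCA) in 0 of 171 coding regions, 0.259% of unlisted coding exons and 1.68% of all regions.

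The E-box and RUNX motifs showed less contrast than GATA. The E-box (CAGATG or CAGCTG) was in 42.7% of coding regions, 32.8% of 3′ untranslated regions, 34.3% of intronic regions and 27.1% of all regions, and unlisted coding exons held it in 30.4%. RUNX (TGCGGT or TGTGGT) was in 26.9% of coding, 19.0% of 3′ untranslated, 30.7% of noncoding, 26.1% of intronic and 21.3% of all regions, and in 17.0% of unlisted coding exons. None of these shares was tested. GC content also differed between these sets, as given above, and its part in the shares was not tested.

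**Figure D5:**
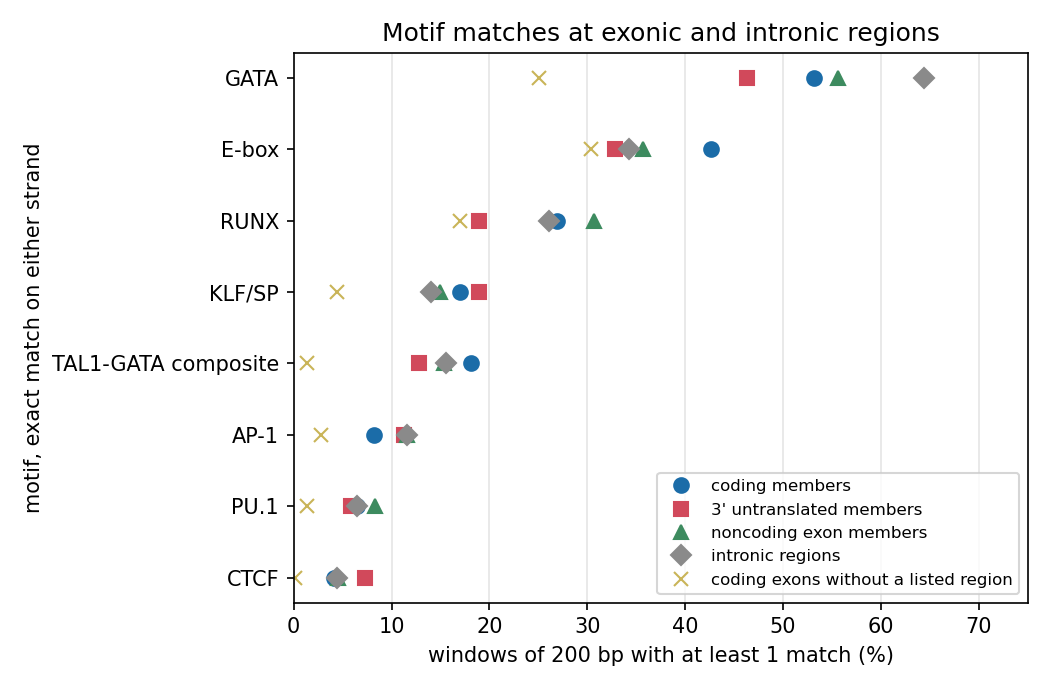
Share of 200 bp windows with at least 1 match (horizontal axis, percent) for 8 motifs (vertical axis), with 1 symbol for each class of exonic region, for intronic regions and for coding exons without a listed region. For GATA the coding regions are at 53.2% and the unlisted coding exons at 25.1%, and for the TAL1-GATA composite at 18.1% and 1.34%.

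GATA matches were fewer per exonic region than per intronic region. In the exonic set 226 regions had 1 match, 86 had 2 and 43 had 3 or more, so that 18.5% had at least 2, against 30.3% of intronic and 4.25% of promoter regions. In the windows of coding regions there were 3.76 matches per kb of exonic bases (103 in 27380 bases) and 4.69 per kb of the bases beside the exon (32 in 6820). Intronic regions had 5.35 per kb. Unlisted coding exons had 1.49 per kb over their whole windows, which count any bases beside the exon as well. Exonic bases made up 80.1% of the windows of coding regions, because the summit had to lie in an exon. The number of matches in the exon therefore follows from the rule of the set. Their density in the exon was lower than in the flank. Of 538 matches in exonic regions, 60.2% lay within 50 bp of the summit, as did 60.3% in intronic regions, and 53.3% in coding regions. In unlisted coding exons 48.7% of matches lay within 50 bp of the window's centre, so the coding regions were nearer to that share.

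Within coding sequence 91 GATA matches could be placed in a reading frame. On the sense strand there were 51, of which 18 began at the second base of a codon, 33 at the last and 0 at the first. A sense match that begins at the first base would spell a stop codon in frame. On the antisense strand there were 40, with 5, 20 and 15 at the first, the second and the last base. In coding exons without a region, 50.6% of 31687 matches were on the sense strand, against 56.0% in coding regions. Sense matches at the second and last base were 20.4% and 30.2% of all matches there, against 19.8% and 36.3% in coding regions. Antisense matches at the first, the second and the last base were 10.1%, 20.6% and 18.6% there, against 5.49%, 22.0% and 16.5% in coding regions. The widest relative gap was at the first antisense base, where the coding regions had 5 matches. None of these shares was tested.

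Exonic regions with a GATA match were listed in both replicates in 66.5% of cases and those without in 45.3%. Over all joined regions the shares were 67.8% and 67.3%. Within the exonic set the share was 75.8% against 43.8% in coding regions, 66.1% against 46.3% in 3′ untranslated regions and 60.4% against 43.0% in noncoding regions, while the 13 regions in 5′ untranslated parts had 66.7% against 70.0%. Intronic regions showed the same direction, 66.3% against 47.5%, and promoters the opposite, 74.7% against 79.7%. Width moved with it: exonic regions with a composite were a median of 473 bp wide, those with another GATA match 415.5 bp and those without a match 320.5 bp, and its part in the result was not tested. The 38 regions with a CTCF match went the other way, with 36.8% in both lists and a median width of 258.5 bp. Neil3, a DNA glycosylase gene, had 11.96 and 13.6 at such a region, D030034A15Rik had 12.6 and 10.1, and Slc43a2, an amino acid transporter gene, had 10.9 in replicate 2 alone.

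The 699 regions lay in 662 genes, of which 626 held 1, 35 held 2 and 1 held 3. The gene with 3 was D10Wsu102e, whose annotated last exon is 122802 bp long, and none of its 3 regions was in both lists. Of the 35 genes with 2, 17 had both in both lists. Angpt1, which encodes the angiopoietin ligand of the Tie2 receptor, held 2 coding regions. The one at exon 8 had 11.0 and 13.2, and the one at exon 2 had 9.59 and 9.19 with 3 GATA matches. Both were in both lists, and no start of Angpt1 had a region in either replicate. In Chd9, a chromatin remodeler gene, a noncoding exon had 11.3 and 9.77 and a coding exon 4.11 and 5.41. Armc9, a gene of the primary cilium, had 9.07 and 12.4 at a noncoding exon and 12.5 and 9.71 at an exon of a decay transcript.

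Host genes often had an open promoter as well. Of 549 protein-coding hosts, 334 (60.8%) had a promoter region in both replicates, against 39.1% of all 21938 protein-coding genes. The share was 57.6% for hosts of coding regions, 58.2% for 3′ untranslated and 73.6% for noncoding regions. Gene length was not taken into account in this comparison.

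Genes of the blood cell lists were hosts at a share near that of all protein-coding genes. Of 221 genes in 8 such lists, 4 (1.81%) held an exonic region, and of 335 genes in all 14 lists, which also cover cytokine signalling, chromatin modifiers and other cell types, 9 (2.69%) did. Among all 21938 protein-coding genes 549 (2.50%) did. Among heme genes 1 of 28 held one, Fech, which inserts iron into heme, with 3.94 and 5.33 at a retained-intron exon. Of 29 red cell membrane and surface genes it was Cd44, the hyaluronan receptor, with 2.81 in replicate 2 alone. Of 44 erythroid factors and cofactors it was Klf1, the erythroid activator of globin genes, at chr8:84903115-84903294 in exon 2 of 3, with 5.57 in replicate 2 alone, 1187 bp from a start and with no GATA match. These 3 regions were in the lowest 12% of each list that held them.

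The remaining lists had similar counts. Among 29 stem and progenitor genes only Angpt1 held a region. Cytokine signalling had Stat3, the transcription factor downstream of many cytokine receptors (4.64), and Il6st, the shared receptor subunit gp130 (5.18), both in 3′ untranslated parts and in replicate 2 alone. Kdr, the VEGF receptor of endothelium and early blood progenitors, had 7.97 and 5.76 with 3 GATA matches at a retained-intron exon. Of 37 chromatin modifiers, Kdm6b, a histone H3 lysine 27 demethylase, had 6.70 and 7.79 in its 5′ untranslated part, and Kmt2d, a histone H3 lysine 4 methyltransferase, had 6.07 in replicate 2 alone. The megakaryocyte, mast cell, granulocyte and macrophage, lymphoid, hepatocyte, neuron and fibroblast lists held 0 exonic regions, with 12 to 25 genes in each.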

How the data were processed

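ATAC-seq of 2 replicates of G1E cells was analysed from the peak lists. The authors deposited a list per replicate, thresholded by the irreproducible discovery rate, on mm10 per the labels. The deposited signal value of each peak is the authors' enrichment value, compared only within a list. Neither aligner nor peak caller is named in the sources used here. The lists held 26083 and 27810 summits, or 21194 and 22620 regions once overlapping or touching peaks were joined, and the depth is unknown. Lists that belong to no single sample, 7 in number, were left aside.

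Regions were classed with GENCODE M21. Python 3.11.15 with numpy 2.4.6, pandas 2.3.3, scipy 1.17.1 and pysam 0.24.0 was used, with matplotlib 3.10.9 for figures. Sequence came from the RefSeq copy of GRCm38, indexed with samtools 1.23.1. Strings of 19 motifs were matched exactly. The scripts were tested on simulated data. The design has 1 group, so nothing was tested between groups and shares are given with the spread over 2 replicates.

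Members and gene lists were chosen with earlier results of these data known. Genes were named by rule: the 6 strongest regions of each class in both lists, 8 genes with several regions (ranked by number, then by number in both lists, then by alphabet, which settled a tie of 17), every region in a listed gene, the 6 strongest with a composite or at least 3 GATA matches, the 3 strongest with CTCF, and those next to the 1 kb limit. One gene that the rule names is not reported here. Alternatives covered the lists, signal threshold, distance, annotation, choice of summit, joining, motif window and each replicate alone.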

Additional observations from a re-analysis of the deposited data

How the results depend on the processing

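With the authors' more lenient lists there were 1584 exonic regions, 27.1% of them coding, 42.7% in both lists and 42.7% with a GATA match. With peaks of the stronger part of each list (above its median signal) these were 326, 26.1%, 61.3% and 57.7%. Without joining, 1275 peaks qualified and 26.5% were coding. Basic transcripts alone gave 34.8% coding and 47.9% with GATA, and leaving out retained-intron and decay transcripts gave 29.3% coding. A limit of 2 kb gave 53.1% with GATA. Motif windows of 100 and 400 bp gave 34.2% and 67.1%, as narrower or wider windows hold fewer or more letters. Apart from the annotation and window settings, whose construction changes the classes or letters, the cause was not tested. With each replicate left out in turn, the number was 523 to 590, the coding share 24.9% to 27.0% and the GATA share 52.9% to 55.3%. Settings not named for a result moved it by less than 1.5 times (numbers) or by less than the replicate or counting spread (shares). Leaving out regions of repeated words, an alternative chosen after seeing the data, gave 681, 23.8%, 56.4% and 51.1%. No paired analysis was possible because there is 1 group. The unknown depth limits every absence from a list.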
